A study of Mus musculus with 9 samples.

Results

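The mouse mitochondrial genome is a small circle of DNA that sits in many copies in each cell and is inherited from the mother. It encodes core subunits of the respiratory chain, the ribosomal RNAs of the mitochondrial ribosome and a set of transfer RNAs, while all other mitochondrial proteins are encoded in the nucleus and imported. Both strands are transcribed into long precursors by the polymerase Polrmt with the factors Tfam and Tfb2m, and transfer RNAs lying between the genes are cut out to release the messengers. The genes described here were all rows of the deposited count table whose symbol begins with mt-, which gave 37 of 57180 genes. They comprised 13 messenger RNA genes, 2 ribosomal RNA genes and 22 transfer RNA genes. Of the messenger genes, 12 are annotated on one strand and mt-Nd6 alone on the other.

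RNA was sequenced from dorsal skin of BALB/c nude mice, which lack a thymus and most of their hair, in 9 libraries that formed 3 groups of 3. UVB-hCOL3A1 skin was irradiated with ultraviolet B and given hCOL3A1, which the series title ties to mRNA delivery of type III collagen. No dose, carrier or route of hCOL3A1 is stated in the labels. UVB-Saline skin was irradiated and given saline. Irradiation in both groups was every other day for 8 weeks, with exposure raised from 60 mJ/cm² (1 minimal erythemal dose) to 240 mJ/cm² (4 minimal erythemal doses). NoUVB skin was not irradiated, and its labels name no saline, so irradiation and saline handling cannot be told apart in comparisons with it. All groups carry the same batch label and a collection day of 28, with no start given for that count. The labels name no animal for any library, and a p-value here therefore reflects the spread of these samples, part of which may be technical.

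The libraries held 7640172 to 12927411 estimated counts each. Nuclear 18S ribosomal RNA (Rn18s-rs5) accounted for 34.3% to 55.3% of the total in 8 libraries and for 7.71% in NoUVB 2, which stood apart in this respect. Basal keratinocyte markers (Krt5, Krt14, Itga6 and Trp63) summed to 1906 to 4156 CPM (counts scaled to library size with TMM factors) over the libraries and fibroblast markers to 5517 to 8400.0 CPM, so that both main cell types of skin were represented. In bulk tissue, fewer cells of a type and less RNA per cell cannot be told apart.

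Many mitochondrial messengers have near-identical copies in the nuclear genome, left by past transfers of mitochondrial DNA to the chromosomes. In the deposited table the counts of most such pairs were split between the row of the gene and the row of the copy. Comparing the transcripts of GENCODE M21 (build GRCm38) with blastn found 7 such copies at 99% identity or more over at least 200 bases, all of them annotated as unprocessed pseudogenes on chromosome 1. Those of mt-Co2 (Gm28661, 681 bases), mt-Atp6 (Gm10925, 678 bases), mt-Co3 (Gm28437, 783 bases), mt-Nd4 (Gm28439, 876 bases) and mt-Nd4l (Gm10222, 294 bases) were 100% identical to the gene over the aligned stretch. The copies of mt-Co1 (Gm29216, 483 bases) and mt-Nd3 (Gm28438, 345 bases) each differed at 1 base. The following stretches of 60 bases are shown because they contain those single differences, in capitals, and, for mt-Co2 and mt-Nd4l, because the gene and its copy read the same throughout.
mt-Co1: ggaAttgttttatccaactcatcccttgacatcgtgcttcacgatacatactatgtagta
Gm29216: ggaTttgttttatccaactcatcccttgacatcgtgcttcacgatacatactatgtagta
mt-Nd3: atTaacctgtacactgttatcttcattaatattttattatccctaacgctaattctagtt
Gm28438: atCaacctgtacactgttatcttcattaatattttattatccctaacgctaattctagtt
mt-Co2: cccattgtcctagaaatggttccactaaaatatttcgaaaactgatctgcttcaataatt
Gm28661: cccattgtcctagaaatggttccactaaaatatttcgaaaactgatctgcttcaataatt
mt-Nd4l: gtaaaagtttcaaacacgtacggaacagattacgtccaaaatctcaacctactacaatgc
Gm10222: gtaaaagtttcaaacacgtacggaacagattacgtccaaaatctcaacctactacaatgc
The differences are A1066T in mt-Co1 and T3C in mt-Nd3, with the mitochondrial base first and positions counted from 1 at the 5′ end of the mitochondrial transcript. Other nuclear matches to the 13 messenger genes, at 90.7% to 97.6% identity, held at most 9.25 estimated counts in any library.

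For mt-Co2, which encodes a catalytic subunit of cytochrome c oxidase, the deposited row was 0 in 6 of the 9 libraries. It held 29.4, 0 and 0 CPM in UVB-hCOL3A1 skin, 0, 15.2 and 0 CPM in UVB-Saline skin and 0, 0 and 17.9 CPM in NoUVB skin. Its copy Gm28661 held between 11673 and 26175 estimated counts in each library, so that mt-Co2 had at most 2.42% of the counts of the pair. mt-Nd3, a small subunit of complex I, was likewise 0 in 6 libraries, with 0, 0 and 9.14 CPM in UVB-hCOL3A1 skin, 0, 0 and 8.42 CPM in UVB-Saline skin and 0, 6.72 and 0 CPM in NoUVB skin. The values above 0 occurred in 1 library of each group and did not follow the groups. The share of the pair on the mitochondrial row was 0.0063% to 14.3% for mt-Co3, 5.93% to 29.8% for mt-Atp6, 6.79% to 19.2% for mt-Nd4l and 89.0% to 93.8% for mt-Co1. For mt-Nd4 the whole pair was on the mitochondrial row, since Gm28439 was listed at 0 in all 9 libraries.

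**Figure D1:**
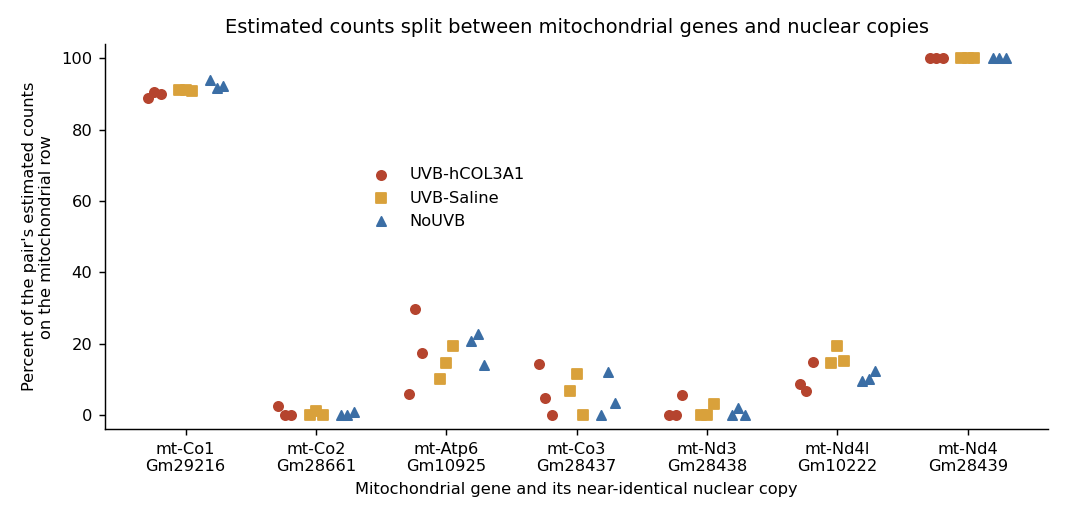
Percent of the estimated counts of each pair that lay on the mitochondrial row (y axis), for the 7 messenger genes with a near-identical nuclear copy (x axis), with 1 point for each of the 9 libraries. mt-Co2 and mt-Nd3 sit near 0, mt-Co1 between 89.0% and 93.8%, and mt-Atp6 spreads from 5.93% to 29.8%.

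The split differed between libraries of the same group, and mt-Co3, the third subunit of complex IV, shows it most plainly. mt-Co3 held 155, 60.9 and 0.0842 CPM in UVB-hCOL3A1 skin, 133, 160 and 0.115 CPM in UVB-Saline skin and 0.102, 230 and 62.5 CPM in NoUVB skin. With Gm28437 added, it held 1081, 1288 and 1053 CPM in UVB-hCOL3A1 skin, 1945, 1375 and 1824 CPM in UVB-Saline skin and 1503, 1921 and 1818 CPM in NoUVB skin. The groups overlapped widely before the addition, and after it UVB-hCOL3A1 lay below both other groups. Over all 7 pairs the copies held 19.7% to 23.4% of the counts of mitochondrial messengers and copies together. Results are therefore given both for the rows as deposited and with each copy added to its gene, an alternative chosen after seeing the data. Adding the copies assumes that reads on them came from mitochondrial RNA, which was not tested.

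Taken over all 13 messenger genes as deposited, mitochondrial messengers made up 2.84%, 3.84% and 3.03% of the counts outside 18S and mitochondrial ribosomal RNA in UVB-hCOL3A1 skin, 4.81%, 3.11% and 4.08% in UVB-Saline skin and 4.24%, 5.55% and 4.57% in NoUVB skin. All 3 UVB-hCOL3A1 libraries lay below the lowest NoUVB library, and UVB-Saline overlapped both other groups. The group means were 3.24 ± 0.531% in UVB-hCOL3A1, 4.00 ± 0.854% in UVB-Saline and 4.78 ± 0.684% in NoUVB (SD, n = 3 each). With copies added, the shares were 3.71%, 4.81% and 3.85% in UVB-hCOL3A1 skin, 6.24%, 4.06% and 5.32% in UVB-Saline skin and 5.32%, 6.91% and 5.83% in NoUVB skin, with the same overlaps. The 95% Wilson intervals of these shares reached at most 0.021 percentage points to either side and cover counting error only. As a share of all counts the NoUVB values were 1.89%, 5.12% and 2.84%, with the highest in the library of lowest 18S, and there UVB-hCOL3A1 (1.63%, 2.21% and 1.66%) overlapped NoUVB.

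**Figure D2:**
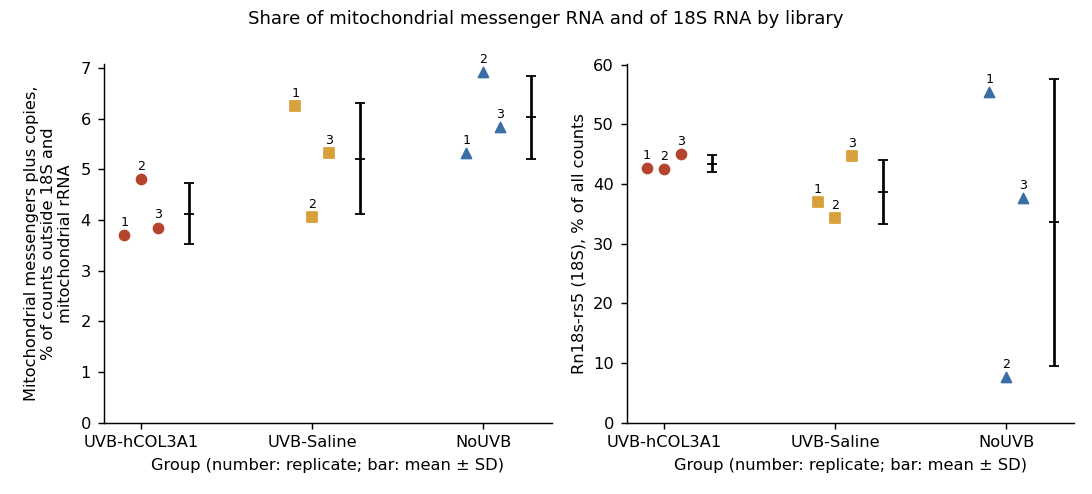
Left, mitochondrial messenger RNA with nuclear copies as a percent of counts outside 18S and mitochondrial ribosomal RNA. Right, Rn18s-rs5 as a percent of all counts. Each point is a library labelled with its replicate number, and bars give the mean ± SD of 3. UVB-hCOL3A1 lies between 3.71% and 4.81% in the left panel, below NoUVB (5.32% to 6.91%), and NoUVB 2 lies at 7.71% in the right panel.

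The subunits of cytochrome c oxidase (complex IV) led the messenger pool, with 43.0% to 48.6% of its counts when copies were added. mt-Co1, which encodes the subunit that holds the oxygen-reducing centre, was the most abundant of the 37 genes, at 6879.7 to 13261 CPM as deposited. With copies added it made up 37.0%, 34.8% and 38.6% of all mitochondrial messenger counts in UVB-hCOL3A1 skin, 32.0%, 33.0% and 34.6% in UVB-Saline skin and 33.7%, 33.2% and 32.7% in NoUVB skin. The lowest UVB-hCOL3A1 share of 34.8% was above the highest NoUVB share of 33.7%, and above the highest UVB-Saline share of 34.6% by less than the spread within either group. mt-Cytb, the only mitochondrially encoded subunit of complex III, made up 10.3%, 11.3% and 10.4% in UVB-hCOL3A1 skin, 10.99%, 10.6% and 9.86% in UVB-Saline skin and 11.7%, 11.7% and 11.9% in NoUVB skin. Its NoUVB shares lay above all 6 irradiated libraries. Complex I subunits together held 31.1% to 35.8% of the pool and the ATP synthase subunits mt-Atp6 and mt-Atp8 held 9.52% to 11.2%.

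Per length, with copies added, mt-Co1 ranked first in each library, at 19.9% to 24.9% of messenger counts per kilobase. Counts were divided by the full annotated length, with no correction for the length of the sequenced fragments. mt-Atp8, mt-Nd4l and mt-Nd3 are only 204, 297 and 348 bases long, so their values and ranks may not be comparable with those of longer genes. mt-Atp8 and mt-Atp6, which are read from one joint messenger and overlap by 43 bases, came next in most libraries, between 9.30% and 12.4% per kilobase, with mt-Cytb (8.28% to 10.1%) and mt-Co2 (7.81% to 8.79%) close behind. The ranges of mt-Atp8 and mt-Atp6 overlapped and their order changed between libraries. mt-Nd4l (2.49% to 3.74%) ranked 12 and mt-Nd3 (as low as 1.76%) ranked 13 in all 9 libraries. mt-Nd4l shares a joint messenger with mt-Nd4 and overlaps it by 7 bases. The longer mt-Nd4, of 1378 bases, stood at 5.51% to 6.48% per kilobase. mt-Nd6, from the other strand, lay at 3.94% to 4.69%. It overlaps mt-Nd5 by 14 bases on the opposite strand, and the labels do not state the strand setting of the counting. Reads from the antisense partner of a gene cannot be told apart from its own.

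**Figure D3:**
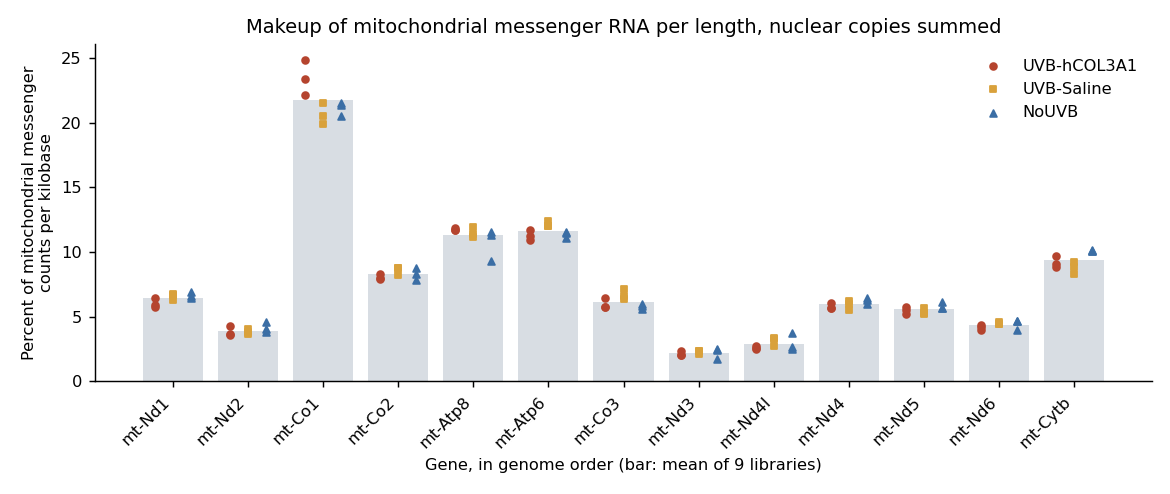
Percent of mitochondrial messenger counts per kilobase, nuclear copies added (y axis), for the 13 messenger genes in genome order (x axis). Bars are means of 9 libraries, which start at 0, and points are libraries by group. Counts were divided by the full annotated length. mt-Co1 (19.9% to 24.9%) stands above all others in each library, and mt-Nd3 and mt-Nd4l are lowest.

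The comparison of UVB-Saline with NoUVB addresses repeated irradiation together with saline handling. In it, 0 of the 17 mitochondrial genes tested were called (edgeR quasi-likelihood test, Benjamini-Hochberg adjusted p under 0.05), where 0.0175% of all 17168 tested genes were called. The 17 were the 13 messengers, both ribosomal RNAs and 2 transfer RNAs. Of the messengers as deposited, 11 of 13 had a log2 difference below 0, against 48.2% of all genes, and their median was -0.23, against 0.01 over all genes. None of the 13 was without overlap between the groups, where 6.61% of all genes lay wholly lower and 7.18% wholly higher. At an unadjusted p under 0.05, 0 of 13 messengers were lower, against 4.6% of all genes, and the 2 transfer RNAs were higher, against 4.93% of all genes. limma voom called 0 of the 17, where 0.0116% of all genes were called. DESeq2 gave an adjusted p to 14 of the 17 in each comparison, not to mt-Co2, mt-Nd3 and mt-Tv, and called 0 of those 14, where it called 0.706% of all genes with an adjusted p. With copies added, all 13 differences were negative, from -0.42 to -0.03, with adjusted p from 0.571 to 0.974. The median as deposited depended on single libraries, at -0.41 without NoUVB 1, -0.15 without NoUVB 2, -0.37 without UVB-Saline 1 and -0.14 without UVB-Saline 2.

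The messengers with the smallest p in that comparison were mt-Cytb and mt-Nd5. mt-Cytb held 4119, 2492 and 3352 CPM in UVB-Saline skin, against 3771, 5078 and 4446 CPM in NoUVB skin. Its highest UVB-Saline library lay within the NoUVB range, and the log2 difference was -0.42 ± 0.20 (SE, edgeR adjusted p = 0.573). mt-Nd5, a large subunit of the proton-pumping arm of complex I, held 4031, 2376 and 3388 CPM in UVB-Saline skin, against 3415, 4905 and 4013 CPM in NoUVB skin (-0.33 ± 0.22, edgeR adjusted p = 0.676). UVB-Saline 2 was the lowest irradiated saline library for both genes, and NoUVB 2 the highest NoUVB library. mt-Co1 as deposited held 10936, 7102 and 10686 CPM in UVB-Saline skin, against 10226, 13261 and 11325 CPM in NoUVB skin, with a log2 difference of -0.28 ± 0.18 and an edgeR adjusted p of 0.684.

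In the comparison of UVB-hCOL3A1 with UVB-Saline, which addresses the treatment of irradiated skin, 0 of the 17 genes were called by edgeR, as were 0% of all genes. DESeq2 called mt-Nd4l and mt-Rnr2, both lower in UVB-hCOL3A1 skin (DESeq2 adjusted p = 0.00154 and 0.0163), of the 14 with an adjusted p. Over all genes DESeq2 called 173, of which 48 were lower in UVB-hCOL3A1 skin, or 0.397% of those with an adjusted p. limma voom called 0 of the 17 and 0% of all genes. edgeR called mt-Nd4l with library size alone as the scaling (0.0815% of all genes were called lower) and mt-Rnr2 with no filter on low counts (0.09%). At an unadjusted p under 0.05, 5 of 13 messengers were lower in UVB-hCOL3A1 skin, against 5.32% of all genes, and 1 lay wholly below UVB-Saline, against 8.33% of all genes. None was higher at an unadjusted p under 0.05 (5.97% of all genes were) or wholly above UVB-Saline (8.95% of all genes). The median log2 difference of the messengers was -0.41, against -0.02 over all genes, and 11 of 13 were below 0, against 53.9% of all genes. Without UVB-Saline 1 the median was -0.27. Over all 17 genes, 6 had an unadjusted p under 0.05 in the lower direction. That count was 2 without UVB-Saline 3 or UVB-hCOL3A1 3, 3 without UVB-Saline 1 or UVB-hCOL3A1 1, 9 without UVB-hCOL3A1 2 and 11 without UVB-Saline 2. With copies added, all 13 were negative, between -0.68 and -0.26, 8 had an unadjusted p under 0.05, and mt-Co3 and mt-Nd4l lay wholly below UVB-Saline. The smallest adjusted p among those 13 was 0.232, for mt-Co3 (-0.59 ± 0.15, SE, edgeR), whose libraries are given above.

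mt-Nd4l, a small membrane subunit of complex I, had the largest difference of the messengers in that comparison and shows how far the split matters. As deposited it held 14.2, 15.9 and 25.6 CPM in UVB-hCOL3A1 skin, 57.2, 45.8 and 44.3 CPM in UVB-Saline skin and 22.8, 49.5 and 38.3 CPM in NoUVB skin. UVB-hCOL3A1 lay wholly below UVB-Saline, at a log2 difference of -1.41 ± 0.30 (SE, edgeR adjusted p = 0.206). With Gm10222 added it held 164, 235 and 172 CPM in UVB-hCOL3A1 skin, 390, 238 and 290 CPM in UVB-Saline skin and 243, 486 and 308 CPM in NoUVB skin. UVB-hCOL3A1 again lay wholly below UVB-Saline, but NoUVB in place of UVB-Saline now had the highest library, and the log2 difference between UVB-hCOL3A1 and UVB-Saline was -0.68 ± 0.28 (edgeR adjusted p = 0.414). The rows with the smallest p among positive differences were mt-Co2 (0.93 ± 2.32, edgeR adjusted p = 0.923) and mt-Nd3 (0.10 ± 2.23, edgeR adjusted p = 0.993). Both were 0 in 2 of 3 libraries of each group, and with copies added both differences were negative, at -0.52 ± 0.16 and -0.53 ± 0.25.

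By the median of the messengers, UVB-hCOL3A1 and NoUVB lay furthest apart of the 3 comparisons. The labels give these groups 2 differences, irradiation and treatment, which cannot be told apart here. Of the 17 genes tested, 0 were called by edgeR, where 0.0408% of all genes were called. DESeq2 called 5, namely mt-Nd1, mt-Nd4l, mt-Nd4, mt-Nd6 and mt-Cytb (DESeq2 adjusted p from 0.0275 to 0.0478), all lower in UVB-hCOL3A1 skin, of the 14 with an adjusted p. Over all genes it called 269, of which 88 were lower, or 0.566% of those with an adjusted p. limma voom called 0 of the 17 and 0% of all genes. A fit of those groups alone with edgeR tested 14 of the 17 and called mt-Nd1, mt-Nd4 and mt-Cytb (adjusted p from 0.0316 to 0.0409), all lower. That fit called 407 of all genes, against 7 with all groups in the fit, and 124 of the 407 were lower, or 0.752% of those tested. With library size alone edgeR called mt-Nd4l, where 0.256% of all genes were called lower. As deposited, 8 of 13 messengers lay wholly below NoUVB, against 10.7% of all genes, and 9 of 13 had an unadjusted p under 0.05 and a lower level, against 5.52% of all genes.

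The median log2 difference of the messengers between UVB-hCOL3A1 and NoUVB was -0.74, against -0.01 over all genes, and 11 of 13 were below 0, against 50.8% of all genes. With copies added, all 13 were negative and spanned -0.86 to -0.51, with the median again at -0.74. Of these, 12 lay wholly below NoUVB, all except mt-Nd3, and 13 had an unadjusted p under 0.05, while the edgeR adjusted p ranged from 0.167 to 0.328. Over all genes as deposited, 10.7% lay wholly below NoUVB and 5.52% were lower at an unadjusted p under 0.05. These shares were not computed with copies added. As the messengers varied together across libraries (median r = 0.948), they do not count as 13 separate observations. DESeq2 on the summed counts called 7 of the 13 messengers, namely mt-Nd1, mt-Co2, mt-Atp6, mt-Co3, mt-Nd4, mt-Nd6 and mt-Cytb, where it called 0.56% of all genes with an adjusted p lower. mt-Nd4l, called as deposited, was not among them. Without NoUVB 2, the library of low 18S share, the median with copies added was -0.58 and the smallest edgeR adjusted p was 0.378. The 7 genes with a nuclear copy spanned -0.86 to -0.51 and the other 6 spanned -0.78 to -0.51, with standard errors of 0.15 to 0.28 over all 13.

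Single genes show the same picture by library. mt-Cytb held 2164, 3181 and 2399.7 CPM in UVB-hCOL3A1 skin, against 3771, 5078 and 4446 CPM in NoUVB skin. Each UVB-hCOL3A1 library lay below each NoUVB library, at a log2 difference of -0.78 ± 0.21 (SE, edgeR adjusted p = 0.196). mt-Nd6, the complex I subunit from the other strand, held 467, 594 and 529 CPM in UVB-hCOL3A1 skin, against 671, 1065 and 934 CPM in NoUVB skin (-0.75 ± 0.20, edgeR adjusted p = 0.202), again with no overlap. UVB-hCOL3A1 2 was the highest library of its group for both genes. mt-Nd5 held 2035, 2999.5 and 2341 CPM in UVB-hCOL3A1 skin, against 3415, 4905 and 4013 CPM in NoUVB skin (-0.74 ± 0.22, edgeR adjusted p = 0.236). mt-Co1 had the smallest difference of the 3 most abundant messengers, with 6879.7, 8885 and 8024 CPM in UVB-hCOL3A1 skin, against 10226, 13261 and 11325 CPM in NoUVB skin (-0.55 ± 0.18, edgeR adjusted p = 0.296).

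**Figure D4:**
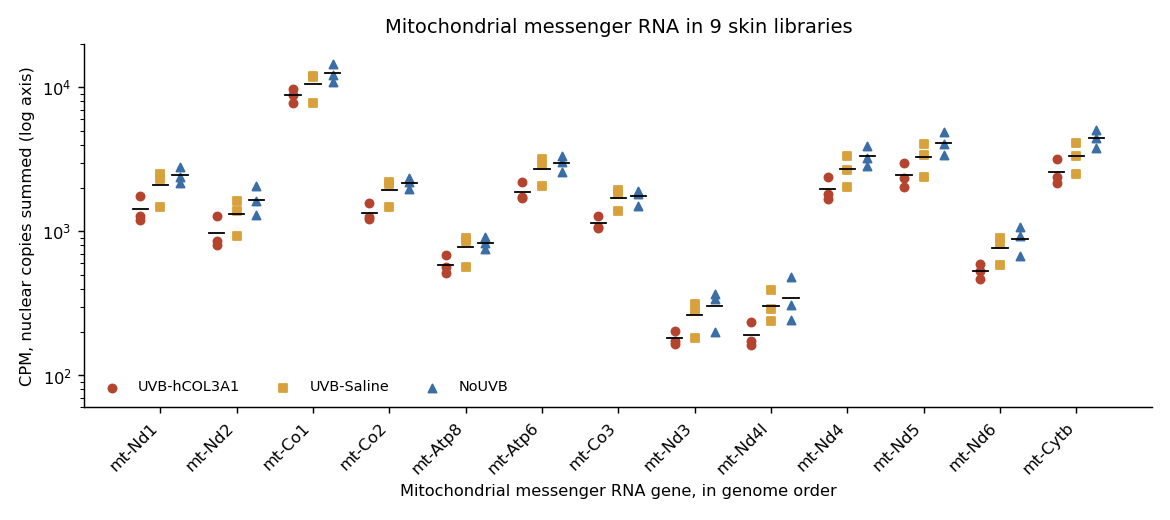
CPM with nuclear copies added (y axis, logarithmic) of the 13 mitochondrial messenger genes (x axis), with 1 point per library and a line at the mean of 3. UVB-hCOL3A1 lies wholly below NoUVB for 12 genes and overlaps it for mt-Nd3, while UVB-Saline overlaps NoUVB for all 13. Of all genes as deposited, 10.7% lay wholly below NoUVB in UVB-hCOL3A1. In UVB-Saline, 6.61% lay wholly below NoUVB and 7.18% wholly above it.

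The remaining messengers followed the same order of group means, here with copies added where there is one. mt-Nd1 and mt-Nd2, further complex I subunits, averaged 1422 ± 307 and 981 ± 256 CPM in UVB-hCOL3A1, 2093 ± 543 and 1319 ± 356 CPM in UVB-Saline, and 2448 ± 309 and 1663 ± 389 CPM in NoUVB (SD, n = 3 each). mt-Nd4, which has a copy with 0 counts, averaged 1960.0 ± 386 CPM in UVB-hCOL3A1, 2695 ± 663 CPM in UVB-Saline and 3320.3 ± 544 CPM in NoUVB. mt-Co2 averaged 1349 ± 194 CPM in UVB-hCOL3A1, 1935 ± 401 CPM in UVB-Saline and 2169 ± 191 CPM in NoUVB. For these 4 genes the UVB-Saline group had a larger SD than its neighbours, except for mt-Nd2, where the NoUVB SD was larger. mt-Atp6, the proton channel subunit of ATP synthase, averaged 1875 ± 279 CPM in UVB-hCOL3A1, 2717 ± 576 CPM in UVB-Saline and 2974 ± 372 CPM in NoUVB. mt-Atp8 averaged 586 ± 88.0 CPM in UVB-hCOL3A1, 777 ± 187 CPM in UVB-Saline and 833 ± 75.7 CPM in NoUVB, and mt-Nd3 averaged 181 ± 20.5 CPM in UVB-hCOL3A1, 261 ± 69.8 CPM in UVB-Saline and 301 ± 88.6 CPM in NoUVB. The means of UVB-Saline and NoUVB differed by less than the SD of one or both groups for mt-Atp6, mt-Atp8 and mt-Nd3.

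**Figure D5:**
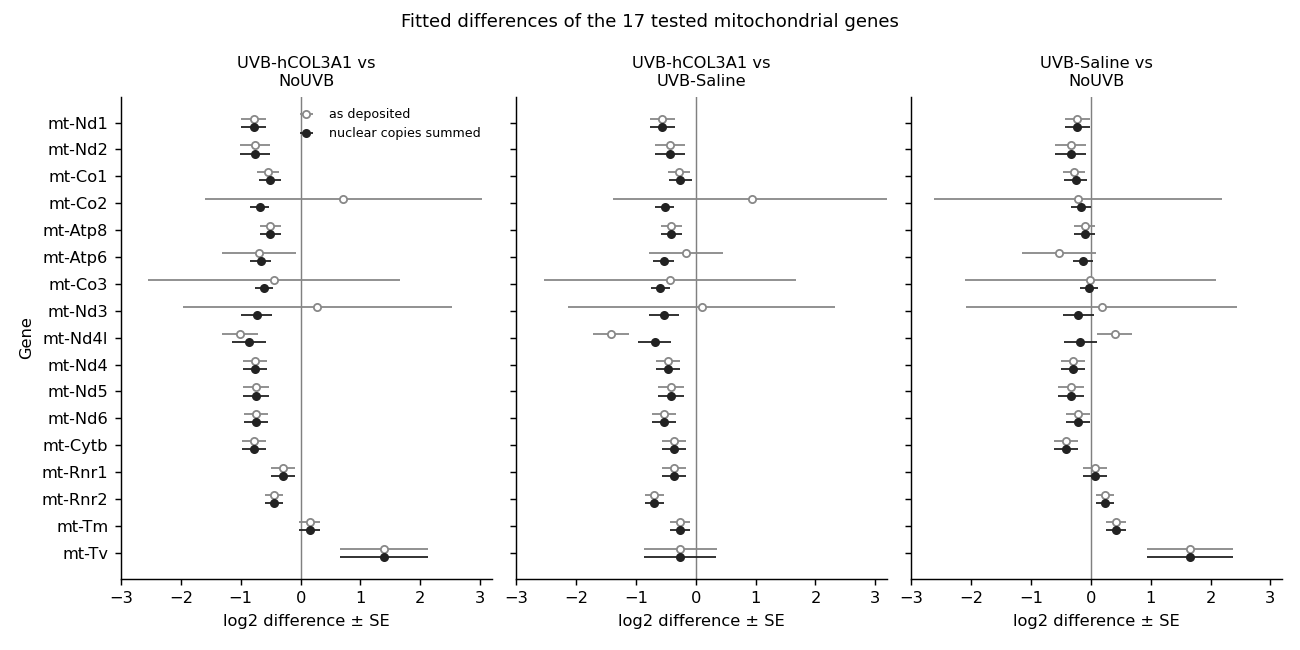
Fitted log2 differences ± SE (x axis) of the 17 tested mitochondrial genes (y axis) in 3 comparisons, as deposited (open) and with nuclear copies added (filled). Bars beyond the axis limits are truncated. With copies added, the 13 messengers lie between -0.86 and -0.51 for UVB-hCOL3A1 against NoUVB, and the wide bars of mt-Co2, mt-Co3 and mt-Nd3 appear for the rows as deposited.

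Across the 9 libraries the messengers with copies added varied together. Over the 78 pairs of genes the Pearson correlation of log2 CPM ranged from 0.827 to 0.995 with a median of 0.948. For the rows as deposited it ranged from -0.668 to 0.995 with a median of 0.619. These values share library, scaling and group differences and are a description.

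The mitochondrial ribosomal RNAs were nearly absent from the libraries, unlike the messengers. mt-Rnr1 (12S) and mt-Rnr2 (16S) together held 851 to 1616 estimated counts per library, 0.00796% to 0.0177% of the total, although ribosomal RNA is the most abundant product of mitochondrial transcription in most tissues. Messengers with copies outnumbered them by 171 to 361 counts to 1. The submitters' notes name Bowtie2 beside STAR but give no role for it, and no label says whether ribosomal reads were removed before counting. Their levels therefore describe what remained after library preparation and processing.

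mt-Rnr2 had the smallest unadjusted p of all 17 genes in the comparison of UVB-hCOL3A1 with UVB-Saline. It held 72.0, 46.4 and 56.5 CPM in UVB-hCOL3A1 skin, 88.7, 90.3 and 103 CPM in UVB-Saline skin and 70.7, 78.9 and 88.7 CPM in NoUVB skin. UVB-hCOL3A1 lay wholly below UVB-Saline, the highest UVB-hCOL3A1 library lay above the lowest NoUVB library, and UVB-Saline and NoUVB met at 88.7 CPM. The log2 difference between UVB-hCOL3A1 and UVB-Saline was -0.69 ± 0.15 (SE, edgeR adjusted p = 0.206). For UVB-hCOL3A1 against NoUVB it was -0.45 ± 0.15 (edgeR adjusted p = 0.301), and for UVB-Saline against NoUVB 0.24 ± 0.15 (edgeR adjusted p = 0.662). mt-Rnr1 held 50.5, 34.8 and 40.7 CPM in UVB-hCOL3A1 skin, 63.4, 42.6 and 56.3 CPM in UVB-Saline skin and 50.1, 41.6 and 62.7 CPM in NoUVB skin. Its 3 groups overlapped in each comparison, with log2 differences of -0.36 ± 0.20, -0.29 ± 0.20 and 0.07 ± 0.20 for UVB-hCOL3A1 against UVB-Saline, UVB-hCOL3A1 against NoUVB and UVB-Saline against NoUVB.

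Transfer RNAs, which are short, folded and heavily modified, were barely counted. Of the 22 genes, 8 held 0 counts in all 9 libraries, where 3 counts, the limit that a count of 0 allows, correspond to 0.229 to 0.426 CPM. A further 12 held at most 8 counts in any library and did not pass the filter on low counts. The 2 that passed were mt-Tm, the methionine transfer RNA, with 90.1% of the 2181 transfer RNA counts, and mt-Tv, the valine transfer RNA, with 78 counts. Both are 69 bases long, mt-Tm lies between mt-Tq and mt-Nd2, and mt-Tv lies between mt-Rnr1 and mt-Rnr2. Their sequences are shown because the other 20 gave next to no signal, with the anticodon (bases 3 to 5 of a 7-base loop between paired stems of 5 bases) in capitals.
mt-Tm: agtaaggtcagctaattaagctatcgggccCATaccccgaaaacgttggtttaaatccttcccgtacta
mt-Tv: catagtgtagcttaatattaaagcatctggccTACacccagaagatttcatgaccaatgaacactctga
Whether reads on either gene came from the mature transfer RNA or from precursors that include a neighbour was not tested.

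mt-Tm held 22.3, 19.3 and 19.1 CPM in UVB-hCOL3A1 skin, 18.6, 28.5 and 25.9 CPM in UVB-Saline skin and 16.9, 16.7 and 21.1 CPM in NoUVB skin. All groups overlapped, and the log2 difference was 0.42 ± 0.17 for UVB-Saline against NoUVB (SE, edgeR adjusted p = 0.487) and 0.15 ± 0.17 for UVB-hCOL3A1 against NoUVB (edgeR adjusted p = 0.775). Thus the most counted transfer RNA did not share the negative differences of the messengers from NoUVB, although the difference between those values was not tested. For UVB-hCOL3A1 against UVB-Saline its log2 difference was negative, at -0.27 ± 0.17 (edgeR adjusted p = 0.583). mt-Tv held 13, 6 and 12 counts in UVB-hCOL3A1 skin, 4, 28 and 5 counts in UVB-Saline skin and 3, 3 and 4 counts in NoUVB skin. UVB-hCOL3A1 lay wholly above NoUVB on these few counts, as did 10.7% of all genes. The log2 difference was 1.39 ± 0.74 for UVB-hCOL3A1 against NoUVB (edgeR adjusted p = 0.498) and 1.65 ± 0.72 for UVB-Saline against NoUVB (edgeR adjusted p = 0.513). That last value rested on UVB-Saline 2 and was 0.41 without it. For UVB-hCOL3A1 against UVB-Saline the log2 difference of mt-Tv was -0.26 ± 0.61 (edgeR adjusted p = 0.915).

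Nuclear genes for mitochondrial transcription, RNA metabolism, DNA maintenance, regulation, the mitochondrial ribosome and the respiratory chain were set beside the members in 7 lists. None of the lists held a gene called by edgeR in any of the 3 comparisons. Over all genes edgeR called 0.0175% for UVB-Saline against NoUVB, 0% for UVB-hCOL3A1 against UVB-Saline and 0.0408% for UVB-hCOL3A1 against NoUVB. The absence of calls therefore does not set these lists apart. Of 11 tested transcription genes, 8 were positive and 3 negative in UVB-hCOL3A1 against NoUVB, where 50.8% of all genes were below 0. The median log2 difference of this list was 0.09, against -0.01 over all genes. Polrmt, the mitochondrial RNA polymerase, averaged 9.92 ± 0.399 CPM in UVB-hCOL3A1 and 11.4 ± 0.523 CPM in NoUVB (SD, n = 3 each), at a log2 difference of -0.20 ± 0.12 (edgeR adjusted p = 0.578). The medians were -0.05 for 30 genes of RNA processing and modification, -0.03 for 7 genes of RNA stability and decay, -0.03 for 16 genes of mitochondrial DNA maintenance and -0.01 for 12 tested regulators. In the other comparisons the medians of these 5 lists lay between -0.07 and 0.06. Among the regulators, Ppara, a nuclear receptor of fatty acid oxidation, averaged 2.15 ± 0.104 CPM in UVB-hCOL3A1 and 3.42 ± 0.271 CPM in NoUVB (-0.67 ± 0.27, edgeR adjusted p = 0.368). UVB-Saline was as low for Ppara, at 2.05 ± 0.728 CPM (-0.72 ± 0.27 against NoUVB, edgeR adjusted p = 0.448). Pparg, the adipocyte nuclear receptor, averaged 19.6 ± 4.42 CPM in UVB-hCOL3A1 and 13.3 ± 0.645 CPM in NoUVB (0.56 ± 0.22, edgeR adjusted p = 0.368). In UVB-Saline it averaged 10.8 ± 3.54 CPM, and UVB-hCOL3A1 differed from that group by 0.84 ± 0.23 (edgeR adjusted p = 0.247).

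The nuclear partners of the mitochondrial messengers had medians of the other sign. Of 83 tested nuclear respiratory chain subunits, 72 were positive and 11 negative in UVB-hCOL3A1 against NoUVB, where 50.8% of all genes were below 0. The median log2 difference of the 83 was 0.15, and 13 had an unadjusted p under 0.05 and a higher level, against 6.29% of all genes. In UVB-hCOL3A1 against UVB-Saline 51 were positive and 32 negative, with a median of 0.06, where 53.9% of all genes were below 0. In UVB-Saline against NoUVB 56 were positive and 27 negative, with a median of 0.07, where 48.2% of all genes were below 0. Cox8b, a complex IV subunit of striated muscle, averaged 2.90 ± 0.443 CPM in UVB-hCOL3A1 and 1.06 ± 0.0882 CPM in NoUVB (SD, n = 3 each), at a log2 difference of 1.45 ± 0.32 (edgeR adjusted p = 0.147). Cox6a2, also a muscle subunit of complex IV, averaged 4.20 ± 0.777 CPM in UVB-hCOL3A1 and 1.73 ± 0.492 CPM in NoUVB (1.27 ± 0.40, edgeR adjusted p = 0.266). The more broadly expressed Ndufa13 of complex I averaged 17.0 ± 2.06 CPM in UVB-hCOL3A1 and 12.7 ± 0.149 CPM in NoUVB (0.42 ± 0.13, edgeR adjusted p = 0.241). Of 78 genes for proteins of the mitochondrial ribosome, 59 were positive and 19 negative in UVB-hCOL3A1 against NoUVB. Only 2 of the 78 had an unadjusted p under 0.05 and a higher level, against 6.29% of all genes. Mrpl42 was among the positive ones (0.45 ± 0.13, edgeR adjusted p = 0.224). The median of this list was 0.11 (0.06 in both other comparisons). Whether these lists differ from the mitochondrial messengers was not tested.

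Skeletal muscle is rich in mitochondria, and markers of it and of other cell types differed in sum between the groups. The 13 skeletal muscle markers summed to 1087 to 1778 CPM in UVB-hCOL3A1 skin, 272 to 916 CPM in UVB-Saline skin and 401 to 1361 CPM in NoUVB skin. Of these markers, 11 of 12 tested had a positive log2 difference between UVB-hCOL3A1 and NoUVB, where 50.8% of all genes were below 0. The 9 adipocyte markers summed to 807 to 1362 CPM in UVB-hCOL3A1 skin, 485 to 717 CPM in UVB-Saline skin and 648 to 1658 CPM in NoUVB skin. Macrophage markers summed to 312 to 400 CPM in UVB-hCOL3A1 skin, 134 to 327 CPM in UVB-Saline skin and 208 to 226 CPM in NoUVB skin. Fibroblast markers summed to 7012 to 8400.0 CPM in UVB-hCOL3A1 skin, 5517 to 5900.1 CPM in UVB-Saline skin and 5702 to 6905 CPM in NoUVB skin. Between UVB-hCOL3A1 and NoUVB, 4 of 9 adipocyte, 5 of 5 macrophage and 5 of 6 fibroblast markers had a positive log2 difference. Between UVB-hCOL3A1 and UVB-Saline, 11 of 12 muscle, 9 of 9 adipocyte, 5 of 5 macrophage and 6 of 6 fibroblast markers did. Of all genes, 53.9% were below 0 in that comparison. The muscle sums averaged 1434 ± 346 CPM in UVB-hCOL3A1, 639 ± 331 CPM in UVB-Saline and 725 ± 551 CPM in NoUVB (SD, n = 3 each), with overlap between UVB-hCOL3A1 and NoUVB. Brown fat was marked by Ucp1, Cidea and Elovl3, the last also a sebocyte marker. Their sums were 48.9 to 64.7 CPM in UVB-hCOL3A1, 46.1 to 82.4 CPM in UVB-Saline and 21.2 to 42.7 CPM in NoUVB. The 2 tested ones had positive log2 differences from NoUVB in both irradiated groups. Sums of basal keratinocyte, upper keratinocyte, sebocyte, red cell and endothelium markers overlapped between all groups. No marker of these lists was at 0 in all 9 libraries. The part of cell makeup in the mitochondrial differences was not tested.

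Likeness was taken to the sum of the 13 messengers as deposited, without nuclear copies. It was taken only over genes outside the set whose mean log2 CPM reached 5, without ribosomal RNA and predicted genes. Those whose log2 CPM followed the summed mitochondrial messengers most closely over the 9 libraries were Ddx3x (r = 0.941), Pkp4 (0.926), Ptma (0.904), Etl4 (0.903), Trp53 (0.903) and Lypd3 (0.892), out of 3415 genes compared. These are Pearson correlations between libraries of shared groups and scaling, and are a description. Ddx3x, an RNA helicase, held 221, 235 and 224 CPM in UVB-hCOL3A1 skin, 246, 216 and 242 CPM in UVB-Saline skin and 232, 255 and 254 CPM in NoUVB skin, a much narrower range than the messengers. Pkp4, a protein of cell junctions, held 41.7, 43.7 and 40.9 CPM in UVB-hCOL3A1 skin, 51.8, 40.6 and 48.3 CPM in UVB-Saline skin and 54.4, 55.6 and 52.0 CPM in NoUVB skin. UVB-hCOL3A1 lay wholly below NoUVB for Pkp4 (log2 difference -0.36 ± 0.10, edgeR adjusted p = 0.222) and overlapped it for Ddx3x (-0.13 ± 0.09, edgeR adjusted p = 0.621).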

How the data were processed

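Total RNA of skin from 9 libraries was sequenced as paired 150 bp reads, per the labels' protocols. The values are estimated counts per gene as the authors deposited them, for 57180 genes. Build GRCm39 and RSEM 1.3.3, STAR 2.7.11b, Bowtie2 2.5.4, DESeq2 1.44.0 and fastp 0.23.4 appear in the submitters' processing notes, with no role for each. Between 11.1% and 14.0% of values per library were not whole, and all were rounded before testing.

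The test was edgeR 4.0.16 in R 4.3.3 (quasi-likelihood, robust, TMM scaling, filterByExpr, which left 17168 genes), with all 9 libraries in 1 fit. Tests were two-sided with Benjamini-Hochberg adjustment over all tested genes and a threshold of 0.05. CPM values are TMM-scaled, and differences are fitted log2 values with standard errors. The test was also run on simulated counts drawn independently for each library and gene. That run does not cover samples correlated by number or counts shared between a gene and its copy. Groups came from the sample titles. The labels do not say that replicate numbers pair samples, and the main fit did not take them to. Samples that shared a number had correlated deviations over 0.1 in 5 of 9 pairs, from 0.018 to 0.41. A shared structure by number was therefore not excluded, and a replicate block was run as an alternative. Nuclear copies were found with blastn 2.17.0 among GENCODE M21 transcripts, to which all 37 genes matched by identifier. Lengths and sequences are from that release (build GRCm38). As the builds differ, no coordinates are given.

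Alternatives were other scalings, filters and tools (DESeq2 1.42.0, limma 3.58.1 voom), fits of only the groups compared, a fit without nuclear ribosomal RNA genes, a replicate block, leaving out each library, and nuclear copies added. All members and lists were chosen with earlier results of these data known. Values by library are given for both ribosomal RNAs, the 3 highest and 3 lowest messengers as deposited, and per comparison the 2 genes of smallest p in each direction. mt-Co3 was added after its values were seen. Of the 525 genes without a symbol, none could enter the set.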

Additional observations from a re-analysis of the deposited data

How the results depend on the processing

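The median log2 differences of the mitochondrial messengers kept their sign under all 23 alternatives. Leaving out 1 library each, they ranged from -0.41 to -0.14 for UVB-Saline against NoUVB, -0.58 to -0.27 for UVB-hCOL3A1 against UVB-Saline and -0.91 to -0.57 for UVB-hCOL3A1 against NoUVB, and the count of called mitochondrial genes was 0 in each such fit. The count of called genes moved elsewhere. For UVB-hCOL3A1 against UVB-Saline it was 1 with library size alone (mt-Nd4l, where 0.0815% of all tested genes were called lower), 1 with no filter on low counts (mt-Rnr2, 0.09%), 2 with DESeq2 (0.397%) and 2 with DESeq2 on summed copies (mt-Rnr2 and mt-Co3, 0.397%). For UVB-hCOL3A1 against NoUVB it was 1 with library size alone (mt-Nd4l, 0.256%), 3 with only the groups compared (0.752%), 5 with DESeq2 (0.566%) and 7 with DESeq2 on summed copies (0.56%). All these mitochondrial calls were lower in UVB-hCOL3A1 skin, and the cause was not tested. On summed copies with DESeq2, mt-Co2 turned from positive to -0.68 (adjusted p = 0.0159), where Gm28661 held nearly all counts of the pair. With all counts as the denominator the messenger share averaged 1.83% in UVB-hCOL3A1, 2.44% in UVB-Saline and 3.29% in NoUVB. Library size alone moved the median of all genes to -0.12 for UVB-hCOL3A1 against NoUVB, where the messenger median was -0.93.

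With the replicate block the mitochondrial calls stayed at 0 in each comparison and the medians were -0.29, -0.43 and -0.76, while calls over all genes were 61, 74 and 118 against 3, 0 and 7 without it, for UVB-Saline against NoUVB, UVB-hCOL3A1 against UVB-Saline and UVB-hCOL3A1 against NoUVB. Deviations of samples with the same number correlated at 0.018 to 0.41, and the own number correlated best in 12 of 18 cases, which is a hint from the data and not part of the design. Calls over all genes ranged from 0 to 100, 0 to 173 and 0 to 407 over the alternatives. Low counts, whose cause was not tested, limit the transfer RNA genes other than mt-Tm, and 3 libraries per group limit all comparisons.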
